A study of Homo sapiens with 6 samples.

Results

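The genes described here encode the MYC, MAX and MXD network of transcription factors, 10 genes chosen by name (MYC, MYCN, MYCL, MAX, MXD1, MXI1, MXD3, MXD4, MNT and MLX) from the 39327 rows of the count table that carry a gene identifier. Each row was found by its Ensembl identifier, and all 10 were present. The rule names genes and uses no measured value, but the genes were chosen with earlier results of these data known. RNA sequencing compared CAL62 cells given 50 nM erianin for 48 h (3 libraries) with CAL62 cells given the solvent DMSO for the same time (3 libraries). CAL62 is an established human anaplastic thyroid carcinoma (ATC) line, labelled wild type in both groups. Erianin is a natural compound from Dendrobium under study as an anti-tumor agent. All 6 libraries come from this single line. Sample titles number the replicates of each group from 1 to 3 without saying whether they were grown separately, so p-values measure the spread between these libraries, which may be technical.

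MYC proteins are basic helix-loop-helix leucine zipper factors that bind DNA as heterodimers with MAX, typically at the E-box sequence CACGTG, and raise transcription of genes for ribosome production, metabolism and cell cycle entry. MXD1, MXI1 (also called MXD2), MXD3, MXD4 and MNT compete for MAX and recruit SIN3 corepressor complexes to the same sites, so the balance between MYC and these repressors is commonly read as a balance between growth and exit from the cell cycle. MLX is a MAX-like factor that pairs with MXD1, MXD4, MNT and the glucose-sensing factors MLXIP and MLXIPL. ERK signaling, a pathway the study examined, is known to stabilize the MYC protein, a step that RNA sequencing does not measure.

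The numbers of reads on named genes ranged from 25776301 to 34107727 per library. DMSO replicate 3 stood apart from the other libraries, with a chi-square per gene of 93.8 and 106 against DMSO replicates 1 and 2, compared with 4.42 between these and between 3.79 and 4.77 among the erianin libraries. Its level of several network genes lay with the erianin libraries rather than with the other DMSO libraries, so the fold change of each tested network gene (in the plot of fold changes) and the count of each gene list are also given without it. The spread between replicates beyond counting noise, as a biological coefficient of variation, fell from 0.139 over all 6 libraries to 0.0421 when DMSO replicate 3 was left out. The thyroid marker PAX8 had at least 14680 reads in every library and the epithelial keratin gene KRT8 at least 36829, while the thyroid genes TSHR and NKX2-1 had no reads and TG had at most 13. Of the markers of blood, endothelial and fibroblast cells, PTPRC, PECAM1, CDH5 and PDGFRB had at most 12 reads in any library, while the collagen gene COL1A1 had between 779 and 1173. With erianin PAX8 was lower by a log2 fold change of -0.66, and the mesenchymal genes FN1 and VIM by -0.80 and -0.47 (edgeR adjusted p = 0.00404, 0.00761 and 0.0300). The other tested markers of these lists did not pass. Their log2 fold changes were 0.03 for FOXE1, 0.26 for EPCAM, 0.01 for KRT8, -0.21 for KRT18 and -0.32 for COL1A1. COL1A1 had an adjusted p of 0.0613 from edgeR, with every erianin library below every DMSO library. The part of the markers in the results below was not tested.

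With erianin, 2 of the 9 network genes that could be tested changed, and both rose. They were MXD1, which encodes a repressor that competes with MYC for MAX, and MYCL, the least abundant MYC gene with a measurable level. MXD1 rose 1.77-fold and MYCL 2.05-fold. MYC itself, MAX, MLX and the other MXD genes did not pass the test with all 6 libraries. A gene passed at a Benjamini-Hochberg adjusted p under 0.05 in edgeR's quasi-likelihood test on the raw counts, adjusted over all 12821 genes tested, and was called a DEG when its absolute log2 fold change was also over 0.5. By these rules 14.9% of all tested genes passed and 8.73% were DEGs, and the 2 of 9 network genes met both. MYCN had too few reads to be tested. None of the 9 passed as lower by edgeR, where MNT and MXD4 made 2 at an unadjusted p under 0.05, while DESeq2 called 1, MNT. In bulk RNA a change in the cells that carry a transcript and a change in its amount per cell cannot be told apart.

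The promoters of the genes that rose are shown beside those of MNT, MXD4 and MLX, the network genes whose windows hold CACGTG, the site that MYC and MXD dimers with MAX share. No CACGTG was found in the MXD1 and MYCL windows, which says only that these letters are not there. Each window runs from 250 bases before to 50 bases after a RefSeq gene start on GRCh38.p14, written 5′ to 3′ on the gene's strand, and windows matched 9 of the 10 genes, all but MYC. MXD1 lies at chr2:69914859-69915158 on the plus strand and MYCL at chr1:39901868-39902167 on the minus strand. Capitals in these windows mark GGGCGG or its complement, the GC box bound by SP factors, with 2 matches in each.
MXD1: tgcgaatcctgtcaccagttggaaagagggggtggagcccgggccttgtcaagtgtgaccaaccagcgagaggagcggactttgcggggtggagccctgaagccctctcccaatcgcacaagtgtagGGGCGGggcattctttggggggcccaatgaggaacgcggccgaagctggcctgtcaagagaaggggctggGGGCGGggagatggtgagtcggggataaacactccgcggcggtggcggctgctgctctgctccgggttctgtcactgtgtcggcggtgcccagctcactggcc
MYCL: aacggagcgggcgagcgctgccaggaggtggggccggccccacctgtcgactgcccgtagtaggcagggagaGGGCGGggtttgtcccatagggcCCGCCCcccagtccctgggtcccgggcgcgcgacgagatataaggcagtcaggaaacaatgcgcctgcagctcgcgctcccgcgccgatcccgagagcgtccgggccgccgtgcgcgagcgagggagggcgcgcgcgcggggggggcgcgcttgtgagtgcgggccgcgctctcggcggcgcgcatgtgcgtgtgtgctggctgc
MNT lies at chr17:2401011-2401310 on the minus strand, MXD4 at chr4:2262060-2262359 on the minus strand and MLX at chr17:42566850-42567149 on the plus strand. Capitals here mark the E-box CACGTG, which reads the same on both strands and overlaps no GC box.
MNT: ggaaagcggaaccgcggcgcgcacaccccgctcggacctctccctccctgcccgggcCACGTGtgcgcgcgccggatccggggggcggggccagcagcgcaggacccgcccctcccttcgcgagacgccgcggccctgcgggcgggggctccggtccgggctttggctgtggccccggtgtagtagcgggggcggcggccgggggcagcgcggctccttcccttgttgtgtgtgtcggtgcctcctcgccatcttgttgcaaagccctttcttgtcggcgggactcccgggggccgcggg
MXD4: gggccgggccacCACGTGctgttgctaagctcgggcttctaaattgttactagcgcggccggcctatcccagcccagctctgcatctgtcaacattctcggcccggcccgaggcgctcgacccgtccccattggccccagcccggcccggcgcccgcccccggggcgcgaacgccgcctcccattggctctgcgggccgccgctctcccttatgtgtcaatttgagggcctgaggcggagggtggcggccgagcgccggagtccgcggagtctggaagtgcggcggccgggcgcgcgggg
MLX: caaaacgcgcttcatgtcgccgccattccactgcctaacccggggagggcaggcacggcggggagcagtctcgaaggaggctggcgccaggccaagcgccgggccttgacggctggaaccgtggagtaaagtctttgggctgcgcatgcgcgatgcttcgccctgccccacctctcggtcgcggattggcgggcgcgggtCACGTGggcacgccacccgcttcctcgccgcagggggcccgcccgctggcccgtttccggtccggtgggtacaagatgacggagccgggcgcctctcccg
The E-box began at position -193 from the gene start in MNT, at -238 in MXD4 and at -50 in MLX. CACGTG was found in 3 of the 12 windows of network genes and in 7.26% of all 35116 windows in the table. The GC box, searched on both strands, was found in 11 of the 12 windows of network genes and in 45% of all windows. Each of the 9 genes had at least 1 window with it. These are matches of letters only.

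MYC was the most abundant gene of the network in every library. Per length of transcript, its level in DMSO was 120 ± 12.0 TPM (SD, n = 3). Ranked by the mean over all 6 libraries, MYC lay above 93.0% of the 11670 genes with a mean of at least 1 TPM. TPM is the count scaled by gene length and library total, and is used here to set genes against each other. MXD4 followed at 46.7 ± 11.3 TPM in DMSO. MNT (24.1 ± 1.55 TPM) and MLX (23.7 ± 1.51 TPM) came next, and their libraries overlapped. MXI1 (17.7 ± 0.694 TPM) and MAX (17.3 ± 0.601 TPM) also overlapped each other. MXD3 (9.03 ± 2.26 TPM) was above MXD1 (6.23 ± 0.642 TPM) in DMSO replicates 1 and 2 but not in replicate 3, and MYCL stood at 1.92 ± 0.482 TPM (SD, n = 3 for each gene). With erianin MXD1, at 12.7 ± 0.651 TPM, was above MXD3, at 8.73 ± 0.417 TPM (SD, n = 3 each), in every library. MLX, at 26.7 ± 0.442 TPM, was then also above MNT, at 22.6 ± 0.519 TPM (SD, n = 3 each), with no overlap, while MXI1 and MAX still overlapped.

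**Figure D1:**
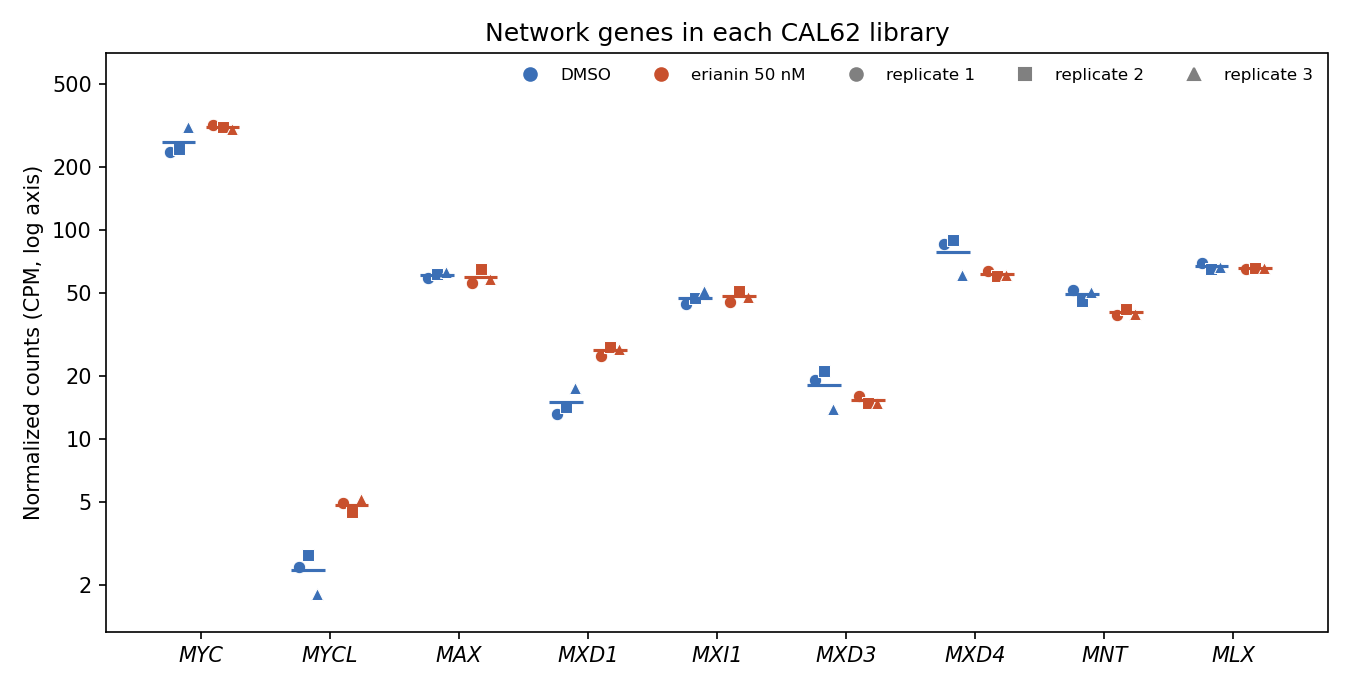
Normalized counts (CPM, log axis) of the 9 tested network genes in each of the 3 DMSO and 3 erianin libraries, with a line at each group mean and a symbol for each replicate number. MXD1 and MYCL lie higher and MNT lower in all erianin libraries, while DMSO replicate 3 (triangles) lies close to the erianin values for MYC, MXD3 and MXD4.

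MYC (ENSG00000136997), the founding member of the family, spans positions 127735434 to 127741434 of chromosome 8 in GENCODE release 29 on GRCh38. It had 236, 242 and 309 CPM (counts per 1000000 after TMM normalization) in DMSO replicates 1, 2 and 3, and 318, 310 and 304 CPM in the erianin replicates. DMSO replicates 1 and 2 were low, and DMSO replicate 3 reached into the range of the erianin libraries. The log2 fold change was 0.25 (standard error 0.11, 95% confidence interval -0.01 to 0.50), with an adjusted p of 0.176 from edgeR, so MYC did not pass. Without DMSO replicate 3 it was 0.37 (standard error 0.04) with an adjusted p of 2.96e-09 from edgeR, a fit in which 55.2% of all genes passed. On deposited TPM values no overlap remained, with 111, 115 and 134 TPM in DMSO and 168, 161 and 163 TPM with erianin. There limma on log2(TPM + 1) gave a log2 fold change of 0.45 (adjusted p = 0.0206 from limma), on a scale where 19.7% of all genes passed. The median of all genes also lay 0.18 higher on that scale, which leaves 0.27 for MYC relative to it. Over rows with an identifier, the TPM of DMSO replicate 3 summed to 59.1% of 1000000, against between 72.6% and 78.3% in the other libraries. TPM is thus not on the same scale in DMSO replicate 3, and the part of this in the lost overlap was not tested. PVT1, a long noncoding RNA gene next to MYC, rose by 0.54 on the log2 scale (adjusted p = 0.0131 from edgeR), with DMSO libraries at 18.2 ± 1.18 CPM and erianin libraries at 26.6 ± 1.26 CPM (SD, n = 3 per group).

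MYCL (ENSG00000116990) lies on chromosome 1 from 39895426 to 39902256. Its counts were low, with 60, 91 and 57 reads in the DMSO libraries and 169, 156 and 181 with erianin. These correspond to 2.46, 2.80 and 1.83 CPM in DMSO and to 4.95, 4.47 and 5.17 CPM with erianin. Every erianin library was above every DMSO library, and here DMSO replicate 3 was the lowest of all. MYCL rose by 1.04 on the log2 scale (standard error 0.19, 95% confidence interval 0.60 to 1.48, adjusted p = 0.0135 from edgeR), and by 0.87 without DMSO replicate 3. It supplied between 1.03% and 1.98% of the summed TPM of MYC, MYCN and MYCL in DMSO and between 2.45% and 2.88% with erianin. MYCN (ENSG00000134323, chromosome 2 from 15940564 to 15947007) had 0 reads in all DMSO libraries and 2, 3 and 0 reads in erianin replicates 1, 2 and 3. A count of 0 allows up to 3 reads, or between 0.0857 and 0.123 CPM depending on the library, and no library exceeded 3 reads, so no difference was detectable at this depth.

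MAX (ENSG00000125952), the obligate partner of MYC, lies on chromosome 14 from 65006174 to 65102695. It had 58.8, 61.3 and 62.9 CPM in DMSO and 56.0, 65.2 and 58.2 CPM with erianin, and the groups overlapped fully. Its log2 fold change of -0.03 had a 95% confidence interval of -0.23 to 0.17 (adjusted p = 0.863 from edgeR). The sign for MAX turned under upper-quartile factors (0.02), on TPM values and without erianin replicate 1. The gene overlaps FNTB on the opposite strand, which had between 221 and 292 reads per library against between 1433 and 2279 for MAX.

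Among the repressors, MXD1 (ENSG00000059728, chromosome 2 from 69897688 to 69942945) had the smallest adjusted p of the network. It had 13.1, 14.3 and 17.6 CPM in DMSO and 25.0, 27.6 and 27.1 CPM with erianin. The groups were well separated, with DMSO replicate 3 the highest of the DMSO libraries. MXD1 rose by 0.82 on the log2 scale (standard error 0.13, 95% confidence interval 0.52 to 1.12, adjusted p = 0.00855 from edgeR), and by 0.94 without DMSO replicate 3. Its annotated gene overlaps SNRNP27, a splicing factor gene on the same strand, by 7888 bases. SNRNP27 had 13.0, 13.5 and 29.8 CPM in DMSO and 16.3, 19.3 and 18.8 CPM with erianin, a log2 fold change of -0.05, and its part in the MXD1 count was not tested.

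MXI1 (ENSG00000119950, chromosome 10 from 110207605 to 110287365), a repressor named for its binding to MAX, had 44.0, 47.1 and 50.8 CPM in DMSO and 45.3, 51.2 and 47.7 CPM with erianin. The libraries of the groups interleaved, with a log2 fold change of 0.02 (95% confidence interval -0.19 to 0.24, adjusted p = 0.903 from edgeR).

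MXD4 (ENSG00000123933, chromosome 4 from 2247432 to 2262294), the most abundant MXD gene here, had 85.8, 89.5 and 60.7 CPM in DMSO and 63.7, 60.2 and 60.7 CPM with erianin. MXD3 (ENSG00000213347, chromosome 5 from 177301461 to 177312757), linked to proliferating cells rather than resting ones, had 19.1, 21.2 and 13.9 CPM in DMSO and 16.2, 14.9 and 15.0 CPM with erianin. For MXD3 and MXD4 alike, DMSO replicates 1 and 2 were high and DMSO replicate 3 stood among or below the erianin libraries. The log2 fold changes were -0.35 for MXD4 (95% confidence interval -0.69 to -0.02, adjusted p = 0.145 from edgeR) and -0.23 for MXD3 (95% confidence interval -0.61 to 0.14, adjusted p = 0.368 from edgeR), and neither passed. Without DMSO replicate 3 the values were -0.52 and -0.40, and edgeR gave adjusted p-values of 4.62e-10 and 0.000227. MXD3 overlaps RAB24 on the same strand and PRELID1 on the other. RAB24 showed a low DMSO replicate 3 as well, at 4.50 CPM against 12.9 and 13.4 CPM in DMSO replicates 1 and 2, and the part of shared reads in MXD3 was not tested.

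MNT (ENSG00000070444, chromosome 17 from 2384060 to 2401118), a broadly expressed antagonist of MYC, had 51.6, 45.9 and 50.4 CPM in DMSO and 39.4, 41.8 and 39.8 CPM with erianin. All erianin libraries lay below all DMSO libraries, DMSO replicate 3 included. The log2 fold change was -0.29 (standard error 0.08, 95% confidence interval -0.49 to -0.09), and with an adjusted p of 0.0583 from edgeR it fell short of the threshold. MNT passed without DMSO replicate 3 (adjusted p = 0.000472 from edgeR) and with DESeq2 (adjusted p = 0.0166), which passed 17.8% of all genes. Groups that did not overlap were common, at 38.7% of all tested genes, and 3 of the 9 network genes (MXD1, MYCL and MNT) were of this kind.

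MLX (ENSG00000108788, chromosome 17 from 42567068 to 42573239) had 69.3, 65.1 and 66.4 CPM in DMSO and 65.3, 65.9 and 66.0 CPM with erianin. The groups overlapped, with a log2 fold change of -0.03 (95% confidence interval -0.19 to 0.14, adjusted p = 0.849 from edgeR). Its sign turned under upper-quartile factors (0.03), on TPM values and with the GC trend removed (0.02). On the opposite strand it overlaps PSMC3IP, which had between 192 and 370 reads per library.

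**Figure D2:**
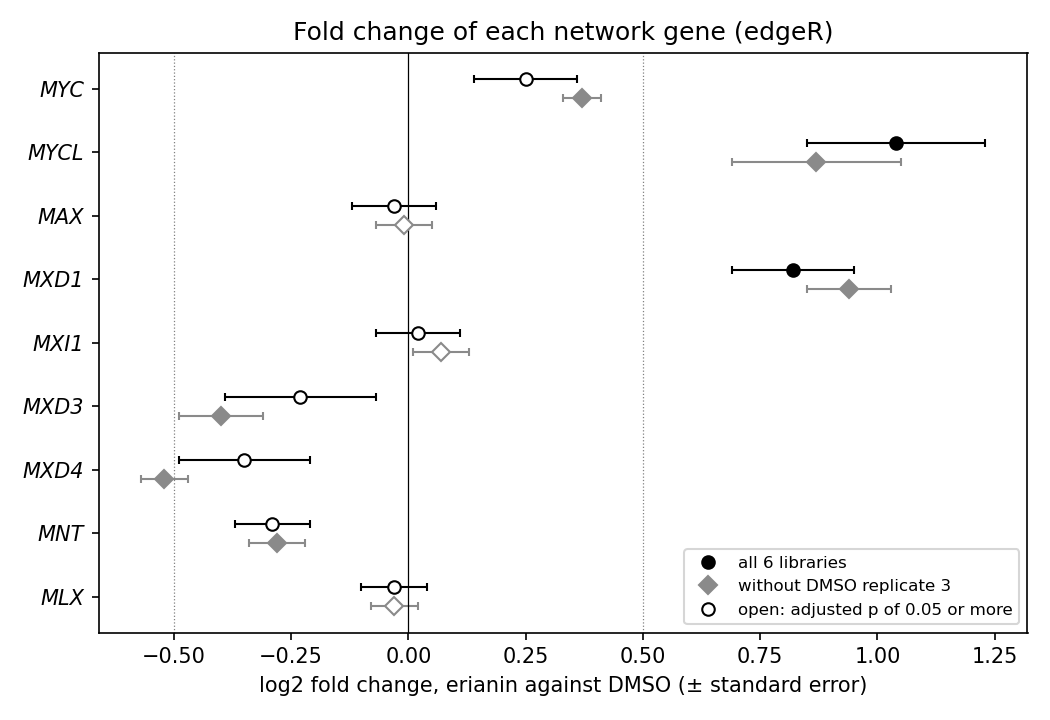
Log2 fold change of the 9 tested network genes, erianin against DMSO, with its standard error from edgeR, for all 6 libraries (circles) and without DMSO replicate 3 (diamonds); open symbols have an adjusted p of 0.05 or more and dotted lines mark 0.5 in each direction. MYCL and MXD1 have filled symbols in both fits, while MYC, MXD3, MXD4 and MNT are filled only without that library.

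How many network genes passed changed with single libraries. Without DMSO replicate 3, 6 of the 9 genes passed, MYC, MYCL and MXD1 higher and MXD3, MXD4 and MNT lower, at a background of 55.2%, and 3 were DEGs (MYCL, MXD1 and MXD4) at a background of 17.5%. Without erianin replicate 1 only MXD1 passed (adjusted p = 0.0493 from edgeR, background 2.57%). Without erianin replicate 2 or 3 no network gene passed by edgeR, at backgrounds of 2.46% and 2.4%, though MXD1, MYCL and MNT made 3 at an unadjusted p under 0.05 in each. The adjusted p-values from edgeR were then 0.0581 and 0.0574 for MXD1 and 0.0601 and 0.0763 for MYCL. Across all 17 alternatives the log2 fold change of MXD1 stayed between 0.73 and 1.02 and that of MYCL between 0.87 and 1.21.

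The make-up of the transcripts was read per library as a description, with no test. MXD1 supplied 6.69%, 6.87% and 10.6% of the summed TPM of MXD1, MXI1, MXD3 and MXD4 in DMSO replicates 1, 2 and 3 and 14.3%, 15.6% and 15.6% in the erianin replicates. MXD4 supplied 61.6%, 60.7% and 51.8% in DMSO and 51.4%, 48.2% and 49.4% with erianin. The share of MXD1 was thus higher in every erianin library than in any DMSO library, while the share of MXD4 in DMSO replicate 3 lay within 1 percentage point of the nearest erianin library. MYC was 19.8, 18.7 and 19.4 times as abundant as MXD1 in the DMSO libraries and 14.0, 12.4 and 12.4 times with erianin, and these ratios did not overlap. The 3 MYC genes summed to 1.03, 1.04 and 1.53 times the TPM of the 4 MXD genes and MNT in DMSO, and to 1.63, 1.56 and 1.57 times with erianin, where DMSO replicate 3 again lay next to the erianin libraries.

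**Figure D3:**
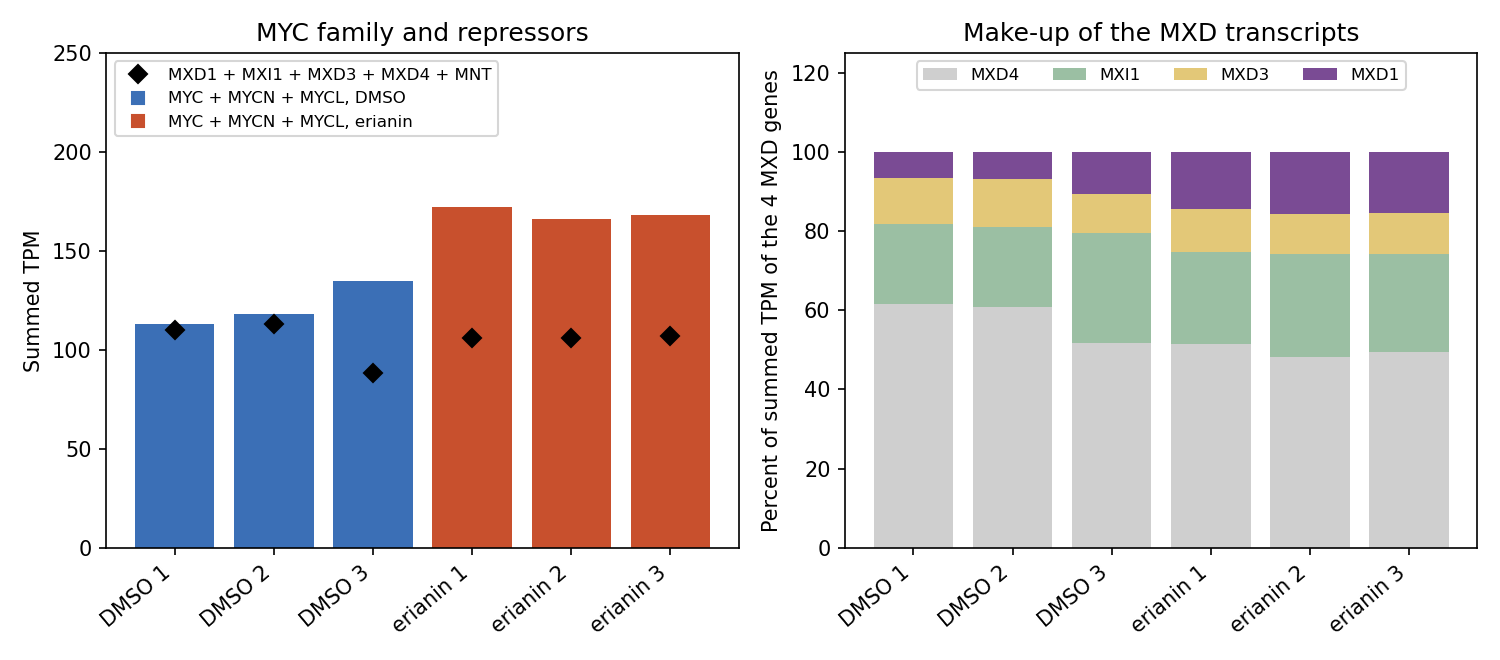
Left, summed TPM of MYC, MYCN and MYCL (bars) and of the 4 MXD genes with MNT (diamonds) in each library; right, the share of each MXD gene in the summed TPM of the 4 MXD genes. The MXD1 share rises from between 6.69% and 10.6% in DMSO to between 14.3% and 15.6% with erianin. The repressor sum is lowest in DMSO replicate 3, but TPM is not on the same scale there. Over rows with an identifier, TPM in that library sums to 59.1% of its full total, against between 72.6% and 78.3% in the other libraries. The height of its bar and diamond thus cannot be set against those of the other libraries. Over all 6 libraries the median of all genes also lay 0.18 higher with erianin on log2(TPM + 1) values. The sums shown are not corrected for this shift.

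Of 40 genes known to be induced by MYC, 36 could be tested, and 7 passed as higher and 3 as lower, against 7.22% and 7.69% of all tested genes, with a median log2 fold change of 0.13 beside 0.00 for all genes. The 3 that passed as lower are a share near the background, and 1 passed as lower with the GC trend removed. TFRC, the transferrin receptor, rose from a mean of 58.6 to 128 CPM, or by 1.12 ± 0.08 on the log2 scale (standard error, edgeR adjusted p = 0.00101). The glycolytic enzyme genes HK2 and LDHA rose by 0.73 and 0.30, and ODC1, the first enzyme of polyamine synthesis, by 0.52 on the log2 scale (edgeR adjusted p = 0.00709, 0.0288 and 0.00973). NOP2, a nucleolar methyltransferase gene, rose by 1.42 (edgeR adjusted p = 0.0195) on 8 to 14 reads in DMSO and 28 to 42 with erianin. Its level was very low, at means of 0.068 TPM in DMSO and 0.212 TPM with erianin. With at least 10 counts required in every library NOP2 was not tested, and 6 induced genes passed as higher. POLR1A, the catalytic subunit of RNA polymerase I, UBTF, its DNA-binding factor, and EIF4EBP1, an inhibitor of translation initiation, changed by -0.51, -0.39 and -0.39 (edgeR adjusted p = 0.00734, 0.0371 and 0.0131). The targets ENO1, NPM1 and FBL, among those with the highest CPM, stood at 0.02, -0.08 and -0.26 and did not pass. Without DMSO replicate 3, 20 genes passed as higher and 7 as lower, at backgrounds of 27.5% and 27.7%. On log2(TPM + 1) values the split was 12 higher and 1 lower, at backgrounds of 17.3% and 2.34%.

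**Figure D4:**
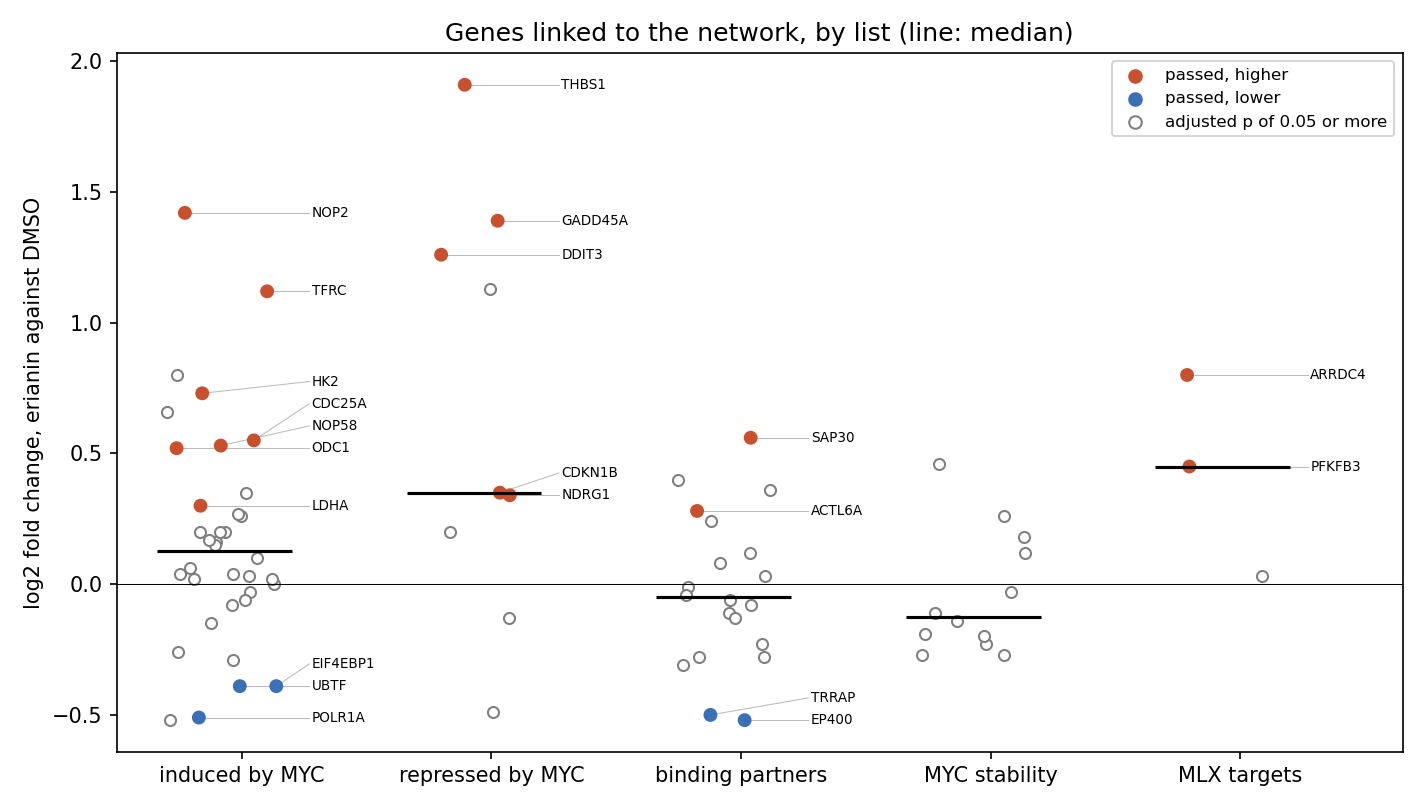
Log2 fold change, erianin against DMSO, of each tested gene in 5 lists linked to the network, with every gene at an adjusted p under 0.05 in edgeR filled and named and a line at each list's median. The medians are 0.13 for genes induced by MYC, 0.35 for genes repressed by MYC, -0.05 for binding partners, -0.12 for regulators of MYC stability and 0.45 for MLX targets.

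Of 12 genes known to be repressed by MYC, 9 could be tested, and 5 passed as higher and 0 as lower by edgeR, at backgrounds of 7.22% and 7.69%. At an unadjusted p under 0.05 there was 1 as lower, CEBPA, with a log2 fold change of -0.49 (adjusted p = 0.133 from edgeR). DESeq2 called 0 as lower. The median log2 fold change was 0.35, with 7 of the 9 genes above 0 and 2 below. Without DMSO replicate 3, 7 passed as higher and 2 as lower, at backgrounds of 27.5% and 27.7%. GADD45A, a DNA damage response gene, and DDIT3, which encodes the stress factor CHOP, rose by 1.39 and 1.26 (edgeR adjusted p = 0.00205 and 0.00410), and both are also induced by stress pathways independent of MYC. THBS1, which encodes the matrix protein thrombospondin 1, rose by 1.91 from 1.32 CPM (edgeR adjusted p = 0.00319). NDRG1, a differentiation and hypoxia gene, and the cell cycle inhibitor gene CDKN1B, named after its values were seen, rose by 0.34 and 0.35 (edgeR adjusted p = 0.0250 and 0.0246). CDKN1A, the best known repressed target, was at 0.20 (standard error 0.16, adjusted p = 0.433 from edgeR), with 214, 226 and 145 CPM in DMSO and 213, 230 and 231 CPM with erianin, so that DMSO replicate 3 alone was low. All 12 genes were chosen with earlier results of these data known, so the count is no independent evidence.

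Of 20 genes for proteins that bind the network, all tested, 2 passed as higher and 2 as lower, against 7.22% and 7.69% of all tested genes, with a median of -0.05. TRRAP and EP400, large subunits of the acetyltransferase complexes that MYC recruits, fell to 181 ± 4.85 CPM from 256 ± 15.8 CPM and to 132 ± 6.66 CPM from 190 ± 23.8 CPM (SD, n = 3 in each group), log2 fold changes of -0.50 and -0.52 (edgeR adjusted p = 0.00664 and 0.0165). The actin-like subunit gene ACTL6A rose by 0.28 and SAP30, a subunit of the SIN3 corepressor complex, by 0.56 (edgeR adjusted p = 0.0425 and 0.0216). RUVBL1 and RUVBL2, helicases of the same acetyltransferase complexes, both stood at -0.28 and did not pass (edgeR adjusted p = 0.0546 and 0.165). Without DMSO replicate 3, 6 partners passed as higher and 8 as lower, at backgrounds of 27.5% and 27.7%. Of the 13 regulators of MYC protein stability, 12 could be tested and 0 passed by edgeR, with a median of -0.12, although 4 had an unadjusted p under 0.05, FBXW7 and PPP2R5A above 0 and HUWE1 and GSK3A below. DESeq2 called 1 as higher, the phosphatase subunit gene PPP2R5A, where 8.37% of all genes were called so, and without DMSO replicate 3 edgeR called 4 in each direction, at backgrounds of 27.5% and 27.7%. HUWE1, a ubiquitin ligase of MYC, was at -0.27 (standard error 0.09, adjusted p = 0.0936 from edgeR).

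MLX with MLXIP drives ARRDC4, which encodes an arrestin-like regulator of glucose uptake. ARRDC4 had 9.20, 9.92 and 11.9 CPM in DMSO and 17.9, 18.3 and 17.7 CPM with erianin, and it rose by 0.80 on the log2 scale (standard error 0.12, adjusted p = 0.00788 from edgeR). PFKFB3, a regulator of glycolysis, rose by 0.45 (adjusted p = 0.0318 from edgeR), and KLF10 was at 0.03 with DMSO replicate 3, at 126 CPM, above all other libraries. These were the only genes of 5 listed MLX targets that could be tested, 2 of the 3 passed as higher at a background of 7.22%, all 3 did so without DMSO replicate 3 at a background of 27.5%, and TXNIP matched no row used here.

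The genes whose pattern over the 6 libraries was most like that of the members that passed were found by the Euclidean distance between centred log2 CPM values among the 12821 tested genes. The nearest to MXD1 were ARRDC4 (distance 0.111), the phosphatase gene PTP4A1 (0.112) and the stanniocalcin gene STC1 (0.145). The nearest to MYCL were ST14, which encodes a membrane serine protease (0.152), RGCC, a regulator of the cell cycle (0.225), and the nuclear receptor gene NR4A1 (0.237). These genes rose by between 0.79 and 0.98 on the log2 scale.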

How the data were processed

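RNA from 6 libraries of CAL62 cells was analysed. One table deposited by the authors holds read counts for each gene, not normalized, and another TPM values of the same libraries, scaled by gene length and library total. The submitters' processing notes name fastp 0.23.2, STAR 2.7.10, featureCounts 2.0.1, StringTie 2.2.1 and GRCh38, with no role given, and the study's methods name the BGISEQ-500 platform and DESeq2. Whether counting used the strand is not given in the sources used here, so overlapping genes may share reads. Over rows with an identifier, TPM columns sum to between 59.1% (DMSO replicate 3) and 78.3% (erianin replicate 3) of 1000000. Rows without an identifier (26480 of 65807) held at most 0.00515% of counts and were left out. The counts came to between 25776301 and 34107727 per library, and intervals cover the spread between libraries only.

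Counts were tested with edgeR 4.0.16 in R 4.3.3 (TMM, filterByExpr, glmQLFit and glmQLFTest, no replicate term) on all genes, with Benjamini-Hochberg adjustment. Genes sharing an identifier were represented by the row with most counts. Alternatives were DESeq2 1.42.0, RLE and upper-quartile factors, other count filters, limma 3.58.1 on log2(TPM + 1) or log2(TPM + 0.1), a replicate block, removal of each library's loess trend on transcript GC content, and each library left out in turn. Steps were tested on simulated counts. Positions are from GENCODE release 29 and promoters from RefSeq on GRCh38.p14. The members and gene lists were chosen with earlier results of these data known. Genes were named by rule: all members, the 5 tested genes of each list with the highest mean CPM, up to 3 with the largest fold change that passed in each direction, and the 3 most similar in pattern to each member that passed. Figures were made with matplotlib 3.10.9. Protein measurements and mouse experiments were not analysed here, and 2 genes that the naming rule or marker lists hold are not reported here.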

Additional observations from a re-analysis of the deposited data

How the results depend on the processing

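The alternatives were fitted on all genes. MXD1 and MYCL passed under all 11 alternatives that kept every library, while MYC passed on the 3 TPM scales, MNT with DESeq2 and MXD4 with the GC trend removed. PHB1 and CIP2A, which dividing cells use, were listed at 0 in every library, so a 0 in this table need not mean an absent transcript. The cause of the changes below was not tested, except that fewer libraries or a replicate term leave fewer residual degrees of freedom.

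The sign turned for genes near 0. With upper-quartile factors MAX was at 0.0237 and MLX at 0.0278. On log2(TPM + 1), log2(TPM + 0.1) and unfiltered log2(TPM + 1) values MAX was at 0.16, 0.17 and 0.16 and MLX at 0.17, 0.17 and 0.17, against a shift of all genes of 0.18, 0.20 and 0.12. With the GC trend removed MLX was at 0.0231, and at 0.0246 with the replicate block as well. With each library left out in turn MXI1 ranged from -0.0319 (without DMSO replicate 1) to 0.07 (without DMSO replicate 3) and MAX from -0.0967 (without erianin replicate 2) to 0.0061 (without erianin replicate 1).

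Counts of genes that passed moved by over 1.5 times as follows. Partners passing as lower numbered 4 with DESeq2 and 1 on unfiltered TPM values, and partners passing as higher 1 without a low-count filter, 5, 5 and 4 on the 3 TPM scales, 0 with the replicate block and 1 with the GC trend removed and the block. Stability genes passing as higher numbered 1 with DESeq2, 1 with upper-quartile factors and 3 on each TPM scale. Induced genes passing as higher numbered 12, 11 and 12 on the 3 TPM scales and 3 with the replicate block, and those passing as lower 1 on each TPM scale, with the replicate block, with the GC trend removed and with both. Repressed genes passing as higher numbered 3 and MLX targets 1 with the replicate block.

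Deviations of same-numbered libraries from their group means had correlations of 0.00138, 0.0253 and -0.0329. Libraries did not always correlate best with their own number. Because DMSO replicate 3 stood apart, these correlations cannot tell whether equal replicate numbers mark pairs of libraries. With the replicate block 745 genes passed against 1912 and 665 were DEGs against 1119, and MXD1 and MYCL still passed.

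With each library left out in turn, DEGs numbered between 309 (without erianin replicate 3) and 2282 (without DMSO replicate 3) and genes that passed between 310 and 7201, with 744 and 737 DEGs without DMSO replicates 1 and 2. Network genes that passed ranged from 0 to 6 and DEGs among them from 0 to 3. Partners passing as higher ranged from 0 to 6 and as lower from 0 to 8, stability genes from 0 to 4 in each direction, induced genes from 1 to 20 as higher and from 0 to 7 as lower, repressed genes from 3 to 7 as higher and from 0 to 2 as lower, and MLX targets passing as higher from 0 to 3. Each of these counts was highest without DMSO replicate 3, and each reached its lowest value without erianin replicate 3, with ties among the other libraries.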
